A study of Mus musculus with 14 samples.

Results

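The 7 genes described here encode the classical cadherins E-cadherin (Cdh1), N-cadherin (Cdh2), P-cadherin (Cdh3) and cadherin-11 (Cdh11) and the catenins αE-catenin (Ctnna1), β-catenin (Ctnnb1) and p120-catenin (Ctnnd1). They were chosen by gene symbol, as 7 of the 23284 genes listed, and each symbol was found in both expression tables. EpH4 is a mouse mammary gland epithelial cell line and EpRas is its derivative transformed with H-Ras. RNA-seq was performed on 14 libraries. Of these, 8 came from untransfected cells and comprised EpH4 and EpRas cells that were left untreated or treated with TGF-β3 (1 ng/ml, 48 h), with 2 libraries for each of the 4 groups. These groups are written EpH4, EpH4+TGF-β, EpRas and EpRas+TGF-β below. The other 6 came from transfected EpRas cells that received a control siRNA (siNC) or 1 of 2 siRNA pairs against Etv4 and Etv5, which encode transcription factors of the ETS family, each with and without TGF-β and with 1 library per condition. EpH4 cells were cultured in 10% serum and EpRas cells in 4% serum, so line and serum cannot be told apart in any comparison between the lines. The promoter that drives the H-Ras transgene, and whether EpRas is a single clone, are not given in the sources used here. The 2 libraries of an untransfected group are biological replicates by the study's description.

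Classical cadherins are transmembrane proteins that join neighbouring cells by binding the same cadherin on the other cell in a calcium-dependent manner. Their cytoplasmic tails bind p120-catenin, which keeps the cadherin at the membrane, and β-catenin, which in turn binds αE-catenin and thereby actin. β-catenin also acts as a transcriptional coactivator in Wnt signaling. E-cadherin is the main cadherin of luminal mammary epithelium, P-cadherin is typical of basal mammary epithelium, and N-cadherin and cadherin-11 are typical of mesenchymal cells. Replacement of E-cadherin by N-cadherin is known as the cadherin switch and accompanies the epithelial-mesenchymal transition (EMT), a process that TGF-β can induce.

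The libraries differed in depth, with relative depths between 0.609 and 1.36 among the untransfected and between 1 and 1.74 among the siRNA libraries, read from the smallest steps between values. Replicate libraries correlated with r between 0.912 and 0.982 over the genes, lowest in EpRas+TGF-β, where genes are not independent replicates. Of 6 markers of mammary luminal epithelium, 6 reached 5 FPKM (fragments scaled to the exon length of the gene and to the total of the library), with sums of 2620 to 3640 FPKM in EpH4 and 1710 to 3170 FPKM in EpRas libraries, although Krt19 was listed at 0 in all EpH4 libraries. Markers of endothelium (4 genes) did not reach 5 FPKM, and their sums were at most 0.481 FPKM in untransfected cells. The 3 leukocyte markers found summed to 0.293 to 2.75 FPKM in EpH4 and 3.81 to 7.13 FPKM in EpRas libraries, with Ptprc at 0 in all 8. In the EpRas libraries the sum was Cd68 alone, since Cd3e was also at 0 there. The 3 adipocyte markers summed to 0.537 to 8.13 FPKM in EpH4 and 0.342 to 2.54 FPKM in EpRas libraries, with Plin1 at 0 in all 8.

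Among the cadherins, Cdh1 was lower and Cdh2 higher in EpRas cells than in EpH4 cells, whether or not TGF-β was present. Cdh1 alone among the 7 genes passed the test for an effect of TGF-β, and only in EpH4 cells, where it rose, although the difference of this effect between the lines did not pass its own test (adjusted p = 0.0705). Cdh3 and Cdh11 were close to 0 in every untransfected library. None of the 3 catenins was called in any comparison with limma (0 of 3, beside 0.802 to 21.3% of all genes by comparison), although the Tukey-Kramer test called Ctnnb1 between the lines. Differences were tested with limma on log2(FPKM + 1) and p-values were adjusted (Benjamini-Hochberg) over 9100 genes, namely those with 5 FPKM or more in 1 or more untransfected libraries. A gene was called at an adjusted p under 0.05. Of the 7 genes, 5 reached this level. All log2 differences below refer to log2(FPKM + 1), so that those between groups are understated for lowly expressed genes. The difference between the TGF-β effects in the lines can instead be overstated where expression is low in EpRas cells, as for Pvrl4 below.

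**Figure D1:**
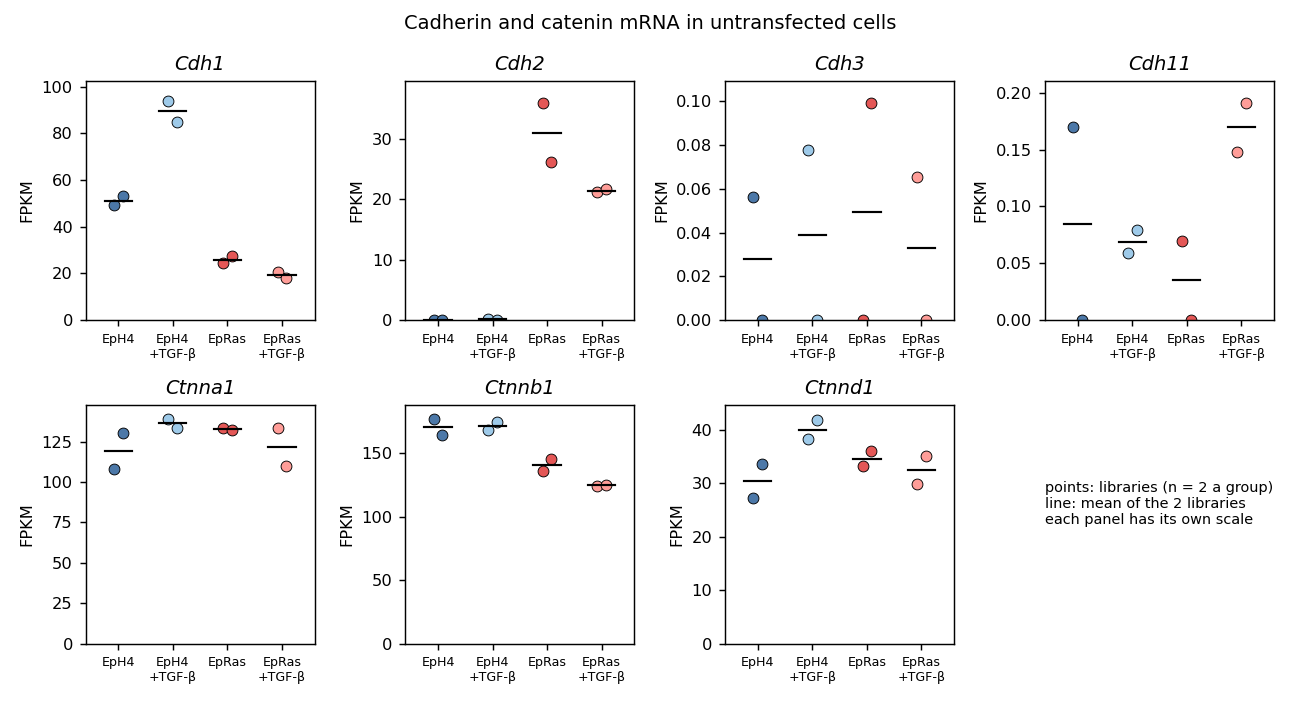
Expression level (FPKM, linear axis from 0, own scale per panel) of the 7 genes in the 8 untransfected libraries; points are libraries, 2 for each group, and lines are group means. Cdh1 reached 93.7 FPKM in EpH4+TGF-β and at most 27.4 FPKM in EpRas cells, while Cdh2 was at 21.2 FPKM or more in every EpRas library and at 0.212 FPKM or less in every EpH4 library.

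Cdh1 lies on chromosome 8 from 106603368 to 106670246 of mm10, on the plus strand. Its expression level was 49.1 and 53.2 FPKM in EpH4, 93.7 and 85.0 FPKM in EpH4+TGF-β, 24.4 and 27.4 FPKM in EpRas, and 20.6 and 18.2 FPKM in EpRas+TGF-β. The groups did not overlap, and their order from high to low was EpH4+TGF-β, EpH4, EpRas and EpRas+TGF-β. From the annotated transcript length, these values stand for about 293 to 2208 reads. Without TGF-β, Cdh1 was 0.507 times as high in EpRas as in EpH4 cells by the group means of 25.9 ± 2.18 and 51.1 ± 2.88 FPKM (SD, n = 2), with a log2 difference of −0.96 (standard error 0.15, 95% interval −1.32 to −0.59, limma adjusted p = 0.00633). With TGF-β, the ratio was 0.217 between means of 19.4 ± 1.701 and 89.4 ± 6.18 FPKM (SD, n = 2), with a log2 difference of −2.15 (standard error 0.15, limma adjusted p = 0.000114). Both differences passed the test under all 17 alternatives tried for each.

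Cdh2 lies on chromosome 18 from 16588877 to 16809049 of mm10, on the minus strand. Its level was 0.0766 and 0.0283 FPKM in EpH4 and 0.212 and 0.0357 FPKM in EpH4+TGF-β, against 35.8 and 26.2 FPKM in EpRas and 21.2 and 21.6 FPKM in EpRas+TGF-β. Every EpRas library was far above every EpH4 library. By the size of the step that 1 read makes, the EpH4 values stand for 2, 1, 4 and 1 reads in the same order, and the EpRas values for 570, 774, 475 and 376 reads. At equal depth, the ratio of reads between EpRas and EpH4 cells was 606 without TGF-β (1344 against 3 reads, exact Clopper-Pearson 95% interval 207 to 2940) and 200 with TGF-β (851 against 5 reads, interval 85.5 to 619). These intervals cover counting error only. The log2 difference was 4.91 (standard error 0.19, limma adjusted p = 1.06e-05) without and 4.32 (standard error 0.19, limma adjusted p = 1.39e-05) with TGF-β, and it moved with the number added before the logarithm, between 2.82 and 7.67 without and between 2.37 and 6.71 with TGF-β, with the call kept under all 17 alternatives. At 1 to 4 reads per EpH4 library, a difference in Cdh2 between EpH4 libraries was not detectable at this depth.

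In each comparison between the lines, 2 of the 5 tested genes were called, 1 higher and 1 lower. Over all 9100 genes tested, 17.6% were called without TGF-β (8.45% higher and 9.11% lower in EpRas) and 21.3% with TGF-β (8.92% higher and 12.3% lower). The median log2 difference of the 5 genes was 0.16 without and −0.30 with TGF-β, beside −0.0031 and −0.0077 over all genes tested. Markers of basal mammary epithelium (4 genes) also differed between the lines, with sums of 351 to 890 FPKM in the EpH4 and 62.9 to 116 FPKM in the EpRas libraries, and Krt14 made up most of these sums. Of the luminal markers, Epcam had means of 289 FPKM in EpH4 and 118 FPKM in EpRas, Cldn3 of 645 and 263 FPKM and Cldn7 of 199 and 59.6 FPKM, whereas Krt8 and Krt18 made up most of the luminal sum and their libraries overlapped between the lines. Krt19 lay the other way, at 0 FPKM in both EpH4 libraries and at 37.4 and 29.5 FPKM in EpRas. The 7 fibroblast markers summed to 22.7 to 247 FPKM in EpH4 and 8.42 to 13.6 FPKM in EpRas libraries, a sum carried in EpH4 cells by Col1a1 (means of 19.96 FPKM in EpH4 and 1.69 FPKM in EpRas), while Pdgfra (0.827 and 2.74 FPKM) and Pdgfrb (0.952 and 7.62 FPKM) lay the other way without TGF-β. Krt5 was at 0 in EpRas, EpRas+TGF-β and EpH4+TGF-β, and Lum was at 0 in all groups. Their part in the differences of Cdh1 and Cdh2 was not tested, and fewer cells of a type cannot be told apart from less RNA per cell in bulk libraries.

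Cdh3 (chromosome 8, 106510891 to 106556908, plus strand) was at 0 to 0.0992 FPKM over the 8 untransfected libraries and listed at 0 in 1 library of each group. Cdh11 (chromosome 8, 102632995 to 102785111, minus strand) was at 0 to 0.191 FPKM, which stands for 0 to 4 reads per library. Neither reached the level of testing, and for neither gene was a difference between the lines detectable at this depth. The mesenchymal cadherin found in EpRas cells at the mRNA level was thus Cdh2, with Cdh11 at 0.0696 and 0 FPKM in EpRas and at 0.148 and 0.191 FPKM in EpRas+TGF-β.

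Since FPKM is scaled to gene length, the 4 cadherins can be set side by side within a library. Cdh1 made up 99.4 to 99.95% of the summed FPKM of the 4 cadherins in the 4 EpH4 libraries. In untreated EpRas cells, Cdh2 made up 59.5 and 48.7%, and Cdh1 the remaining 40.4 and 51.1% apart from traces of Cdh3 and Cdh11. In EpRas+TGF-β, it made up 50.5 and 54.03%. The ratio of Cdh2 to Cdh1 in the EpRas libraries was 1.47, 0.954, 1.03 and 1.19, so that neither gene was above the other in all 4 libraries. The summed FPKM of the 4 cadherins was 51.3 ± 2.69 in EpH4, 89.6 ± 6.34 in EpH4+TGF-β, 57.0 ± 4.64 in EpRas and 41.0 ± 1.44 in EpRas+TGF-β (SD, n = 2). Without TGF-β the sums were thus 49.4 and 53.2 FPKM in EpH4 and 60.3 and 53.7 FPKM in EpRas, with a different makeup.

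**Figure D2:**
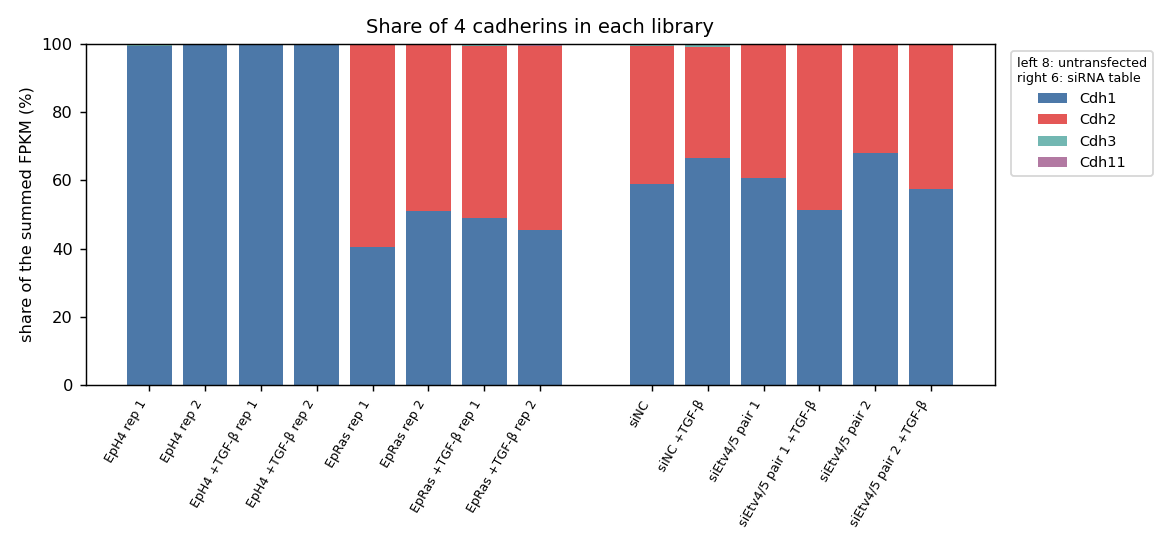
Share (%) of Cdh1, Cdh2, Cdh3 and Cdh11 in their summed FPKM, with 1 bar for each of the 8 untransfected (left) and 6 siRNA libraries (right). Cdh2 is below 1% in the EpH4 libraries, 48.7 to 59.5% in the untransfected EpRas libraries and 31.6 to 48.5% in the siRNA libraries.

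Treatment of EpH4 cells with TGF-β raised Cdh1 1.75-fold by the group means, with a log2 difference of 0.79 (standard error 0.15, 95% interval 0.43 to 1.16, limma adjusted p = 0.021). The treated and untreated libraries did not overlap. The call was lost when any 1 of the 4 EpH4 libraries was left out, with adjusted p of 0.105 and 0.0826 without untreated replicate 1 and 2 and of 0.181 and 0.113 without treated replicate 1 and 2, while the log2 difference stayed between 0.72 and 0.86. Under the limma alternatives that kept all libraries, the adjusted p lay between 0.0111 (pseudocount of 5) and 0.0551 (replicate block). The Tukey-Kramer test on FPKM, adjusted within the gene only, also called the difference (adjusted p = 0.00169). Among the 5 tested genes, 1 was called, against 9.4% of all genes (6.48% higher and 2.91% lower). The basal markers Krt14, Krt17, Krt5 and Trp63 summed to 351 and 413 FPKM in EpH4 and to 822 and 890 FPKM in EpH4+TGF-β, with Krt5 at 0 in the treated libraries. The sum followed Krt14, at means of 356 and 817 FPKM, while Trp63 was at 7.37 and 8.60 FPKM before and 4.64 and 5.52 FPKM after treatment. The 7 fibroblast markers summed to 22.7 and 26.8 FPKM before and 222 and 247 FPKM after treatment, with Dcn and Lum at 0. The luminal marker sum was 2620 and 3290 FPKM in EpH4 and 3460 and 3640 FPKM in EpH4+TGF-β, with Epcam at means of 289 and 532 FPKM and Cldn7 at 199 and 157 FPKM. The part of these in the rise of Cdh1 was not tested.

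In EpRas cells, none of the 5 tested genes passed the test for an effect of TGF-β with limma (0 called, 2 with an unadjusted p under 0.05, Cdh1 and Cdh2), against 3.82% of all genes called (1.9% higher and 1.92% lower), and the Tukey-Kramer test on FPKM also called 0. Both treated libraries lay below both untreated ones for Cdh1, with a log2 difference of −0.40 (95% interval −0.76 to −0.04, limma adjusted p = 0.269), and for Cdh2, with a log2 difference of −0.50 (95% interval −0.94 to −0.06, limma adjusted p = 0.253). Between the lines, the response of Cdh1 to TGF-β differed by −1.19 (95% interval −1.70 to −0.68), which did not pass the test over all genes (limma adjusted p = 0.0705, unadjusted p = 0.000806, adjusted p over the alternatives 0.0422 to 0.373). For this difference 0 of the 5 genes and 0.802% of all genes were called (0.176% higher and 0.626% lower), and 1 of the 5 had an unadjusted p under 0.05.

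Ctnna1 and Ctnnb1 were above each of the 4 cadherins in every untransfected library, whereas Ctnnd1 was below Cdh1 in the EpH4 and above it in the EpRas libraries. With limma, 0 of the 3 catenins was called in any of the 5 comparisons, in which 0.802 to 21.3% of all genes were called. The only one with an unadjusted p under 0.05 was Ctnnb1, between the lines with TGF-β. Ctnnb1 lies on chromosome 9 from 120933400 to 120960507, on the plus strand, and was the most highly expressed of the 7 genes in 7 of the 8 untransfected libraries. Its level was 177 and 164 FPKM in EpH4, 169 and 175 FPKM in EpH4+TGF-β, 136 and 145 FPKM in EpRas and 124 and 125 FPKM in EpRas+TGF-β. All 4 EpRas libraries lay below all 4 EpH4 libraries. The log2 difference between the lines was −0.27 (95% interval −0.60 to 0.05, limma adjusted p = 0.221) without and −0.46 (95% interval −0.78 to −0.13, limma adjusted p = 0.0551) with TGF-β. With TGF-β, the adjusted p was 0.0258 with a pseudocount of 5 and 0.0189 without the filter on low values, and it lay between 0.0189 and 0.239 over the limma alternatives. The Tukey-Kramer test on FPKM, adjusted within the gene only, called the difference both without and with TGF-β.

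Ctnna1 lies on chromosome 18 from 35118912 to 35254775, on the plus strand, with Lrrtm2 on the opposite strand within it. Its level was 108 and 130 FPKM in EpH4, 139 and 134 FPKM in EpH4+TGF-β, 133 and 132 FPKM in EpRas and 133 and 110 FPKM in EpRas+TGF-β. The replicates of a group differed by as much as the groups, and the log2 differences of the comparisons between lines were 0.16 (95% interval −0.23 to 0.55) without and −0.17 (95% interval −0.56 to 0.22) with TGF-β. Ctnnd1, on chromosome 2 from 84600781 to 84650740, on the minus strand, was at 27.3 and 33.5 FPKM in EpH4, 38.2 and 41.8 FPKM in EpH4+TGF-β, 33.2 and 36.1 FPKM in EpRas and 29.9 and 35.1 FPKM in EpRas+TGF-β. Its treated EpH4 libraries lay above the other 6, with a log2 difference to untreated EpH4 cells of 0.39 (95% interval −0.01 to 0.79, limma adjusted p = 0.217). A p above the threshold does not show that these levels were equal, and the intervals give the sizes that remain possible.

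Within an untransfected library, Ctnnd1 was 0.224 to 0.319 times as high as Ctnna1, and Ctnnb1 was 0.934 to 1.64 times as high as Ctnna1. In the siRNA libraries these ratios were 0.333 to 0.514 and 0.825 to 1.44. The summed FPKM of the 3 catenins was 6.24 ± 0.11 times the summed FPKM of the 4 cadherins in EpH4, 3.90 ± 0.31 times in EpH4+TGF-β, 5.43 ± 0.57 times in EpRas and 6.81 ± 0.05 times in EpRas+TGF-β (SD, n = 2). The TGF-β-treated EpH4 libraries, with ratios of 3.68 and 4.12, were the lowest of the untransfected libraries. The catenin sum itself ranged from 271 to 350 FPKM, and the cadherin sum from 40.0 to 94.1 FPKM.

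**Figure D3:**
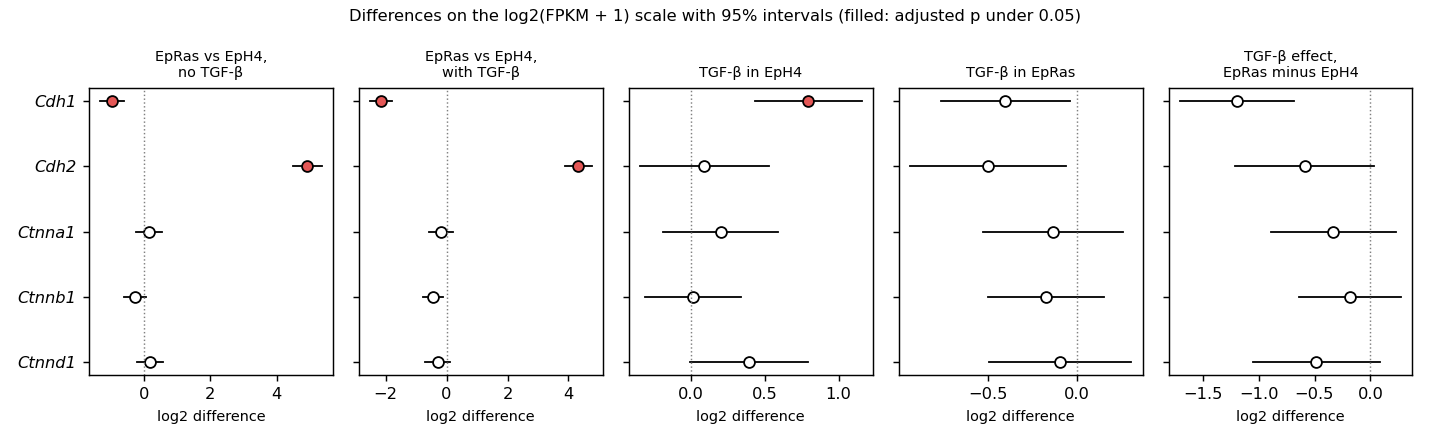
Differences on the log2(FPKM + 1) scale for the 5 tested genes in the 5 comparisons, with 95% limma intervals over 8 libraries and an own axis range for each panel; filled points are called at an adjusted p under 0.05. Cdh1 and Cdh2 are called between the lines, Cdh1 is called for TGF-β in EpH4 cells (0.79), and the intervals of Ctnna1 include 0 in every panel.

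The siRNA libraries showed how the same genes stood when Etv4 and Etv5 were knocked down in EpRas cells. They were prepared independently of the untransfected libraries and quantified separately, so levels of the 2 sets are not tested against each other, and with 1 library per condition no difference in this set has a replicate check. The knockdown itself was visible in each library. Etv4 was at 57.4 FPKM with siNC, 11.6 with siRNA pair 1 and 27.9 with pair 2 without TGF-β, and the TGF-β-treated libraries had 64.3, 12.6 and 18.9 FPKM. Etv5 was at 8.85, 1.61 and 1.26 FPKM without and 5.34, 1.24 and 1.203 FPKM with TGF-β.

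Cdh1 was at 61.3 FPKM with siNC, 63.1 with pair 1 and 48.3 with pair 2 without TGF-β, and with TGF-β at 68.3, 53.4 and 39.5 FPKM. With both pairs it was lower than siNC in the presence of TGF-β, at 0.782 and 0.579 times its level. Cdh2 was at 41.9, 40.7 and 22.5 FPKM without and at 33.6, 50.5 and 29.2 FPKM with TGF-β. The pairs differed for Cdh2, since pair 1 gave 0.971 times and pair 2 gave 0.535 times the siNC level without TGF-β, and 1.502 and 0.870 times with TGF-β. Basal markers summed to 109 FPKM with siNC, 237 with pair 1 and 365 with pair 2 without TGF-β, and to 152, 218 and 247 FPKM with TGF-β. Krt14 made up most of each of these basal sums. Fibroblast markers summed to 5.50, 25.7 and 16.6 FPKM without and 11.7, 43.9 and 22.4 FPKM with TGF-β. Luminal markers summed to 2830, 3090 and 2980 FPKM without and 2990, 4210 and 3850 FPKM with TGF-β, mostly from Krt8 and Krt18. Some members lay the other way with 1 or both pairs. In the same order, the basal marker Krt17 was at 0.514, 0.454 and 0.242 FPKM without and 11.5, 4.17 and 2.74 FPKM with TGF-β. The fibroblast marker Pdgfra was at 3.21, 1.76 and 3.67 FPKM without and 6.79, 2.33 and 3.86 FPKM with TGF-β. The luminal marker Epcam was at 133, 112 and 111 FPKM without and 222, 156 and 153 FPKM with TGF-β. The part of these in the ratios was not tested. None of the 5 genes changed at least 1.5-fold in the same direction with both pairs, without or with TGF-β (0 of 5), a change seen for 16.4% (7.97% higher, 8.46% lower) and 14.4% (6.66% higher, 7.79% lower) of the 9094 genes at 5 FPKM or more in this set.

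Of the catenins, Ctnnb1 was at 187 FPKM with siNC, 119 with pair 1 and 169 with pair 2 without TGF-β, and with TGF-β at 171, 122 and 183 FPKM. It was lower with pair 1 in both settings, at 0.638 and 0.712 times siNC, and at 0.906 and 1.07 times with pair 2. Ctnna1 ranged from 122 to 153 FPKM over the 6 libraries and Ctnnd1 from 48.6 to 75.8 FPKM. Cdh3 was at 0.666 and 0.642 FPKM with siNC and at 0 to 0.181 FPKM with the siRNA pairs, and Cdh11 at 0 to 0.316 FPKM over the 6 libraries, all below the 5 FPKM limit. The intervals that Cuffdiff gives for each value overlapped in all 35 pairs of libraries compared for the 5 genes (7 pairs of libraries for each gene). They also overlapped for targets of the knockdown, for Etv4 with pair 2 without TGF-β (0.485 times siNC) and for Etv5 with both pairs with TGF-β (0.232 and 0.225 times), so that an overlap does not show that a level was unchanged.

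In transfected EpRas cells, the ratio of TGF-β-treated to untreated cells was 1.11 with siNC, 0.847 with pair 1 and 0.819 with pair 2 for Cdh1. For Cdh2 it was 0.801, 1.24 and 1.30 in the same order. Cdh1 thus lay higher and Cdh2 lower after treatment with siNC, and the reverse held with both pairs, each within 1.5-fold. None of the 5 genes passed 1.5-fold in the same direction in all 3 transfections (0 of 5), against 5.98% of all genes (3.62% higher and 2.36% lower). The ratio of Cdh2 to Cdh1 in the siRNA libraries was 0.465 to 0.945, so that Cdh1 was above Cdh2 in all 6, whereas the 4 untransfected EpRas libraries had ratios of 0.954 to 1.47. Transfection and the separate preparation and quantification of the 2 sets cannot be told apart in this.

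**Figure D4:**
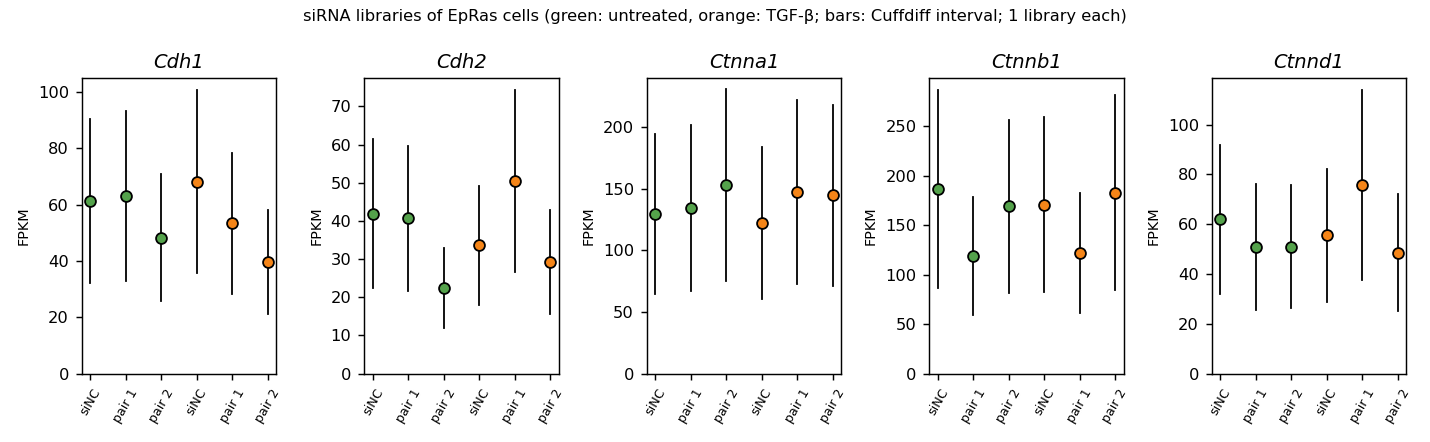
Expression level (FPKM, linear axis from 0) of the 5 genes above 5 FPKM in the 6 siRNA libraries of EpRas cells, without (green) and with TGF-β (orange); bars are the interval Cuffdiff gives for each single library. Within each gene the bars of all compared libraries overlap, and Cdh2 is lowest with pair 2 without TGF-β (22.5 FPKM).

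Promoter sequences were in the RefSeq table (GRCm38.p6, 250 bases before to 50 after a start site) for 2 of the 7 genes, Ctnnb1 and Ctnnd1, with 2 start sites each. A longer form of the ETS core GGAA, to which factors such as Etv4 and Etv5 bind, was searched as CCGGAA on both strands, which 14.9% of the 32851 promoters of the table hold. It was found once, in the upstream Ctnnd1 promoter, and in neither the downstream Ctnnd1 promoter nor the 2 Ctnnb1 promoters. Both Ctnnd1 promoters are shown 5′ to 3′ on the minus strand, because they are the pair that differs in CCGGAA, with CCGGAA in capitals, and GGAA alone was not searched. The upstream start site lies outside the Ctnnd1 locus given in the expression tables.
Ctnnd1, chr2:84658928-84659227: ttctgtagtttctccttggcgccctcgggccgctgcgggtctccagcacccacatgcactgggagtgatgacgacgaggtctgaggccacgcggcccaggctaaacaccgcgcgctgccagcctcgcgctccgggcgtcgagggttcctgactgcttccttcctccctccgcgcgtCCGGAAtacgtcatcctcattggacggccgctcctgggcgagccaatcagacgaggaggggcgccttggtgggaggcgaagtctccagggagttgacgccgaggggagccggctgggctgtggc
Ctnnd1, chr2:84650691-84650990: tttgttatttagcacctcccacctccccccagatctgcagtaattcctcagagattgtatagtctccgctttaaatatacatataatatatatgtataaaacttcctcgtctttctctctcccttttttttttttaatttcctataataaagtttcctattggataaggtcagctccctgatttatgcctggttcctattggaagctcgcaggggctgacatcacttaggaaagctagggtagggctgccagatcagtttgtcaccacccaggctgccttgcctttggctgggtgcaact
With the knockdown, Ctnnd1 was at 0.823 and 0.824 times the siNC level without TGF-β and at 1.37 and 0.876 times with TGF-β. A match is a description of the sequence only.

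Among 18 other cadherins, only Cdh13 and Cdh24 reached 5 FPKM in the untransfected libraries, and 9 were listed at 0 in all 8. Cdh13 encodes T-cadherin, which is anchored to the membrane by a lipid and lacks the catenin-binding tail. It was at 8.80 and 7.76 FPKM in EpH4, 1.13 and 1.59 FPKM in EpH4+TGF-β, 24.1 and 28.1 FPKM in EpRas and 8.17 and 7.58 FPKM in EpRas+TGF-β. Cdh13 was higher in EpRas cells, by 1.55 (log2, limma adjusted p = 0.00119) without and 1.92 (adjusted p = 0.000312) with TGF-β, and it was lower with TGF-β in both EpH4 (−1.98, adjusted p = 0.000648) and EpRas cells (−1.61, adjusted p = 0.00307, with 0.0556 where only the 2 EpRas groups were fitted). It was also lower with TGF-β in all 3 transfections, at 0.390, 0.327 and 0.512 times the untreated level. Cdh24 was not called in any of the 5 comparisons.

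Of 22 further catenins and adherens junction linkers found, 19 were tested. Without TGF-β, 1 was higher (Vcl) and 3 were lower in EpRas cells (Pvrl1, Pvrl2 and Pvrl4), with a median log2 difference of −0.16. These 4 of 19 stand beside 17.6% of all genes called, a share close to that of the list. The Pvrl genes encode nectins, immunoglobulin-like adhesion molecules that bind afadin and sit beside cadherins. Pvrl4 (nectin-4) was at 9.67 and 8.95 FPKM in EpH4, 79.7 and 69.2 FPKM in EpH4+TGF-β, 0.260 and 0.279 FPKM in EpRas and 1.11 and 1.27 FPKM in EpRas+TGF-β. The 4 groups did not overlap, and the log2 difference between the lines was −3.02 (adjusted p = 2.78e-05) without and −5.11 (adjusted p = 2.68e-06) with TGF-β. Pvrl2 was lower in EpRas cells by −1.09 (adjusted p = 0.00374), at 38.9 and 35.0 FPKM against 77.7 and 81.4 FPKM. Pvrl1 (−0.85, limma adjusted p = 0.0254) and Vcl, encoding the actin linker vinculin (0.85, limma adjusted p = 0.016), were called with all libraries. Their calls were lost without any single one of the 4 untreated libraries, with adjusted p of 0.0953 to 0.123 for Pvrl1 and 0.0512 to 0.0928 for Vcl. For Pvrl1 the call was also lost without either TGF-β-treated EpH4 library (adjusted p = 0.0602 in each case).

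With TGF-β, 1 of these 19 genes was higher in EpRas cells (Pvrl3) and 7 were lower, with a median log2 difference of −0.31, beside 21.3% of all genes called (8.92% higher and 12.3% lower). The lower genes were Pvrl1, Pvrl2, Pvrl4, Jup, Arvcf, Mllt4, which encodes afadin, and Plekha7, which encodes a p120-catenin partner. Under the alternatives tried, Pvrl3 was called in 6 of 16 (adjusted p up to 0.247), Mllt4 in 7 of 17 (up to 0.194) and Arvcf in 11 of 16 (up to 0.179), and the other 5 in all of theirs. Plekha7 was at 3.72 and 5.403 FPKM in EpRas and 16.0 and 12.8 FPKM in EpH4 cells, a log2 difference of −1.48 (adjusted p = 0.00232). In EpH4 cells, TGF-β raised 6 of the 19 genes (Actn1, Jup, Pvrl1, Pvrl4, Vasp and Zyx) and lowered Ctnnal1, with a median of 0.49 beside −0.02 over all genes. Over all genes, 6.48% were raised and 2.91% lowered. Of these calls, those of Jup and Pvrl4 were kept under all 17 alternatives, whereas Actn1 was called in 12 of 17, Pvrl1 in 12 of 16 and Vasp, Zyx and Ctnnal1 in 10 of 17 each (adjusted p up to 0.250). Jup encodes plakoglobin, a catenin that can take the place of β-catenin on cadherins. It rose from 59.5 and 70.2 to 173 and 168 FPKM, by 1.38 (standard error 0.17, adjusted p = 0.00337), and was at 54.4 to 68.7 FPKM in the 4 EpRas libraries. Pvrl4 rose by 2.87 (adjusted p = 9.77e-05).

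In EpRas cells, TGF-β raised 2 (Pvrl3 and Pvrl4) and lowered 1 (Ctnnal1) of the 19 genes, with a median of 0.06, beside 1.9% of all genes raised and 1.92% lowered. Pvrl4 rose by 0.78 (adjusted p = 0.0333, between 0.00223 and 0.399 over the alternatives). Pvrl3 was at 5.18 and 6.33 FPKM in untreated and 20.3 and 11.5 FPKM in treated EpRas cells (log2 difference 1.28, adjusted p = 0.0488). Ctnnal1, encoding an α-catenin relative, was at 28.8 and 32.4 FPKM in untreated and 18.2 and 14.1 FPKM in treated EpRas cells (−0.89, adjusted p = 0.0463). The call of Ctnnal1 was lost without any single one of the 8 libraries. That of Pvrl3 was lost without any single one except TGF-β-treated EpRas replicate 2. Over all alternatives, Ctnnal1 was called in 4 of 17 (log2 difference −1.07 to −0.71) and Pvrl3 in 3 of 16 (0.90 to 1.66). The effect of TGF-β on Pvrl4 was smaller in EpRas than in EpH4 cells, by −2.09 (standard error 0.21, limma adjusted p = 0.00798), the only one of the 19 genes called for this difference, beside 0.802% of all genes. This call was lost in 5 of 16 alternatives, with a pseudocount of 0.1 (adjusted p = 0.106) and without treated EpH4 replicate 1 or 2 (adjusted p = 0.0899 and 0.0611), untreated EpH4 replicate 1 (0.0505) or untreated EpRas replicate 2 (0.0553).

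**Figure D5:**
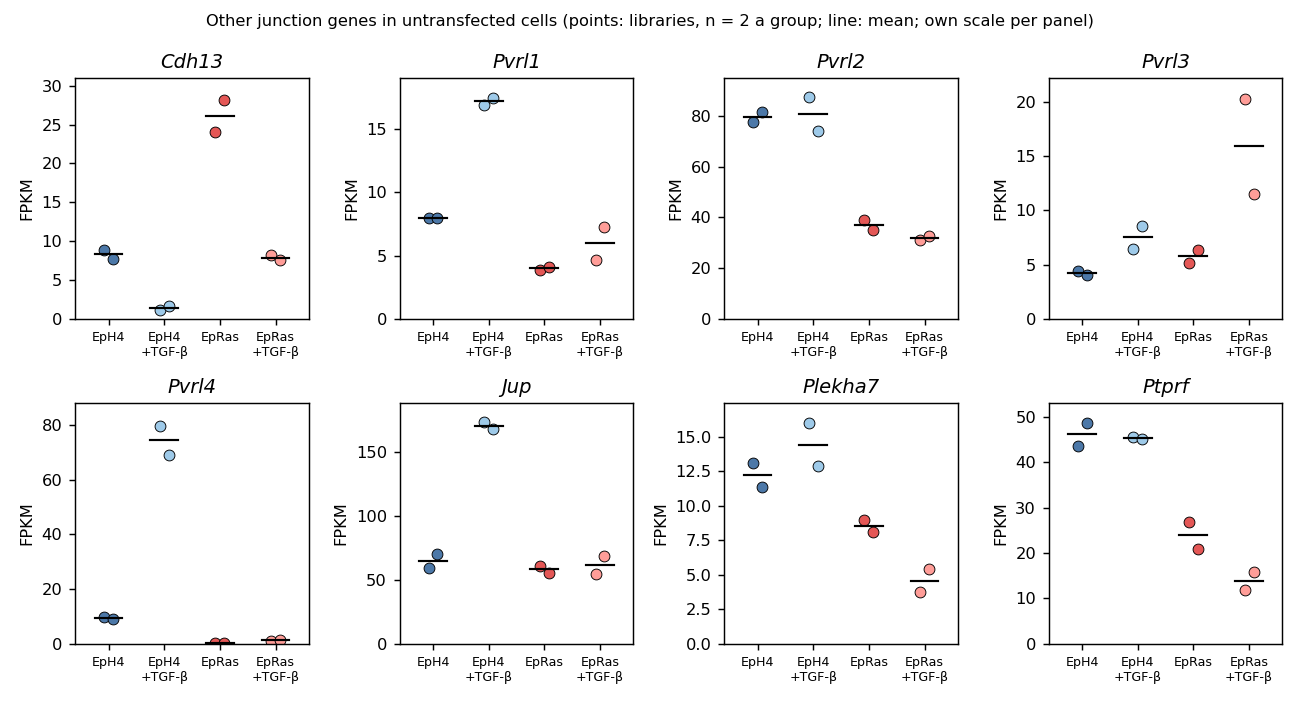
Expression level (FPKM, linear axis from 0, own scale per panel) of 8 other junction genes in the untransfected libraries; points are libraries, 2 per group, and lines are group means. Cdh13 is highest in untreated EpRas cells (24.1 and 28.1 FPKM), whereas Pvrl4 and Jup are highest in EpH4+TGF-β (Pvrl4 at 79.7 and 69.2 FPKM).

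Of 17 genes found that act in cadherin turnover and phosphorylation, 15 were tested. Without TGF-β, 2 were higher and 3 lower in EpRas cells, beside 8.45% and 9.11% of all genes. The higher genes were Ptprm, which encodes a receptor phosphatase that binds its own kind on the next cell, and Pip5k1c, which encodes a lipid kinase. Ptprm was at 4.32 and 3.55 FPKM in EpRas and 0.349 and 0.304 FPKM in untreated EpH4 cells (log2 difference 1.89, adjusted p = 0.00165). Pip5k1c was at 39.1 and 35.7 FPKM in EpRas and 14.9 and 14.8 FPKM in EpH4 cells (1.27, adjusted p = 0.00237). The receptor phosphatase genes Ptprk (−0.98, adjusted p = 0.00628) and Ptprf (−0.93, limma adjusted p = 0.018) and the kinase gene Fyn (−0.84, limma adjusted p = 0.0116, called in 14 of 17 alternatives with adjusted p up to 0.0696) were lower. The call of Ptprf was lost without either untreated EpH4 library (adjusted p = 0.0608 and 0.0993) and without untreated EpRas replicate 2 (0.102). With TGF-β, 2 were higher (Pip5k1c and Ptprm) and 2 were lower in EpRas cells (Ptprf and Ptprk), beside 8.92% and 12.3% of all genes, Ptprf by −1.67 (adjusted p = 0.00111) and Ptprm by 1.43 (adjusted p = 0.00412). The call of Ptprk was kept in 14 of 17 alternatives (adjusted p up to 0.105) and that of Pip5k1c in 16 of 17 (up to 0.0593).

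For TGF-β in EpH4 cells, 0 of these 15 genes was called with limma, beside 9.4% of all genes, and 3 had an unadjusted p under 0.05. In EpRas cells, where 1.9% of all genes were raised, TGF-β raised 1 of the 15, Fyn, from 7.73 and 7.995 to 13.4 and 15.3 FPKM (0.79, adjusted p = 0.0399), a call lost without any single one of the 8 libraries (adjusted p between 0.0652 and 0.219). Of 18 genes found of the β-catenin destruction complex and its transcription partners, 9 were tested and 1 was called in 1 comparison, beside 17.6, 21.3, 9.4, 3.82 and 0.802% of all genes in the 5 comparisons. This was Bcl9l, encoding a β-catenin coactivator, which was lower in EpRas cells with TGF-β (−0.76, adjusted p = 0.0439). Its call was lost without any single library except either untreated EpRas one (adjusted p between 0.0601 and 0.265). In the other 4 comparisons 0 of the 9 was called with limma and 0 had an unadjusted p under 0.05.

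In the siRNA libraries, 1.5-fold changes in the same direction with both pairs were counted in the same lists, beside 16.4% of all genes without and 14.4% with TGF-β. Of the 18 linkers that reached 5 FPKM there, Pvrl3 was lower without TGF-β, and Zyx was higher and Plekha7 lower with TGF-β. Plekha7 was at 12.3 FPKM with siNC and at 5.65 and 5.03 FPKM with the pairs in the presence of TGF-β. Of 15 turnover genes, 3 passed without and 2 with TGF-β, close to the share of all genes. They included Ptprf, higher, and Adam15, lower, without TGF-β, and Fyn was higher and Adam15 lower with TGF-β. Of 10 genes of the β-catenin list, Bcl9l was higher without TGF-β. In all 3 transfections, TGF-β raised 1 (Pvrl1) and lowered 1 (Ctnnal1) of the 18 linkers and lowered 1 (Cdh13) of the 2 other cadherins at 5 FPKM or more, beside 3.62% of all genes raised and 2.36% lowered.

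The genes with the pattern most like that of each member were found by the root mean square difference of centred log2(FPKM + 1) over the 8 untransfected libraries, where a smaller value means a more similar pattern. For Cdh1 these were Oasl1 (0.166), Lfng (0.180) and Atp9a (0.182), with Atp9a at means of 68.9, 88.7, 32.4 and 25.6 FPKM in untreated and treated EpH4 and untreated and treated EpRas cells. For Cdh2 they were Krt19 (0.199), a keratin of luminal epithelium, Cyba (0.248) and Rab12 (0.337), which were all listed at 0 in the EpH4 libraries. Krt19 had means of 33.4 FPKM in untreated and 22.3 FPKM in EpRas+TGF-β. The nearest genes were Gabarap, Ccdc91 and Mbtps1 for Ctnna1 (0.0784 to 0.0823), Hira, Ensa and Ipo8 for Ctnnb1 (0.043 to 0.0718) and Crlf2, Ifnar1 and Atp5sl for Ctnnd1 (0.061 to 0.0949).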

How the data were processed

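RNA-seq was measured in 14 libraries. The authors purified mRNA, sequenced it directionally on the Ion Proton and aligned the reads to mm10, and their processing notes name TopHat2 2.0.11, Bowtie2 and Cufflinks 2.2.0 with Cuffdiff. The 2 deposited tables hold FPKM calculated by the authors for each gene and library with Cuffdiff's interval, 1 table for untransfected and 1 for siRNA libraries, and tests were made within a table only. No column of sample values was left unused (0). FPKM divides by library totals, so that a rise of abundant genes lowers the others. Genes without an OK status (3 and 2) were left out.

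For untransfected groups, limma 3.58.1 (R 4.3.3) was run on log2(FPKM + 1) with 1 mean per group, over the 9100 of 23284 genes with at least 5 FPKM in 1 library, with Benjamini-Hochberg adjustment. The fit was tested on simulated data. For siRNA libraries (9094 genes), ratios were counted past 1.5-fold in the same direction with both pairs or in all 3 transfections. For genes with 1 start site, reads and relative depth were taken from the steps between FPKM values, with reads within 0.05 of a whole number accepted as whole, and for Cdh1 from the annotated length. The depth itself is unknown. Python 3.11.15 with pandas 2.3.3 and scipy 1.17.1 was used otherwise. Alternatives were other pseudocounts, filters and scalings, limma's trend, the Tukey-Kramer test named in the study's statistics, a replicate block and leaving out each library. Numbers and ranges of alternatives given for a gene are those of the limma fits and leave out the Tukey-Kramer test.

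The genes and lists were chosen with earlier results of these data known. Named were the 7 genes, of each list at most 4 called genes with the largest difference between untreated lines and 2 more in each other comparison, and the 3 nearest genes of each tested member. List counts name the called genes, except for 1 result that is not reported here.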

Additional observations from a re-analysis of the deposited data

Results flagged for a closer look

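The difference between TGF-β-treated and untreated cells lay in opposite directions in the 2 lines for Cdh1, whose level was higher in both treated EpH4 libraries and lower in both treated EpRas libraries than in the untreated ones, with a call in EpH4 cells (limma adjusted p = 0.021) and none in EpRas cells (limma adjusted p = 0.269). In siNC-transfected EpRas cells the treated level was 1.11 times the untreated one. The difference between the effects (EpRas minus EpH4) was −1.19 on the log2(FPKM + 1) scale and did not pass the test (limma adjusted p = 0.0705). Vcl had log2 differences of 0.55 in EpH4 (limma adjusted p = 0.105) and −0.32 in EpRas cells (limma adjusted p = 0.436), neither called, with a difference between them of −0.87 (limma adjusted p = 0.249). Fyn had log2 differences of −0.21 in EpH4 (limma adjusted p = 0.473, not called) and 0.79 in EpRas cells (limma adjusted p = 0.0399), with a difference between them of 1.00 (limma adjusted p = 0.138). For Pvrl4 the treated libraries were higher in both lines, and the difference of −2.09 passed the test (limma adjusted p = 0.00798, between 0.00289 and 0.106 over the alternatives).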

How the results depend on the processing

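The differences of Cdh1 and Cdh2 between the lines kept their direction and passed the test under all 17 alternatives, without and with TGF-β. With a replicate block, 0 members passed for TGF-β in EpH4 cells, where Cdh1 had an adjusted p of 0.0551, and with a pseudocount of 5 there was 1 member, Cdh1, for the difference between the TGF-β effects. Leaving out 1 library gave 0 to 1 members for TGF-β in EpH4 cells. Some small effects of TGF-β, none called, changed sign. In EpH4 cells, Ctnnb1 was at −0.02197 with quantile normalization and between −0.04055 and 0.06479 with 1 library left out, below 0 without untreated replicate 2 or treated replicate 2, and Cdh2 lay between −0.02277, without treated replicate 1, and 0.2044. In EpRas cells, Ctnna1 lay between −0.2682 and 0.005204, above 0 without treated replicate 2, and Ctnnd1 between −0.2064 and 0.0211, above 0 without treated replicate 1. The cause was not tested.

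Over all genes, the counts of 1598, 1935, 855, 348 and 73 called genes (EpRas against EpH4 without and with TGF-β, TGF-β in EpH4, TGF-β in EpRas, difference between these effects) became 880, 1092, 559, 225 and 24 with a filter at a mean of 10 FPKM, which leaves fewer genes to test. With the replicate block, counts were 547 for TGF-β in EpH4, 222 for TGF-β in EpRas and 31 for the difference. The deviations of same-numbered replicates from their group means had correlations over genes of −0.347 to 0.0785 between groups. With 2 libraries per group, these cannot show whether the numbers mark pairs, which the study does not state. Fitting only the 2 groups compared left 45 genes for TGF-β in EpRas cells, and the difference had 117 genes without a filter and 45 with limma's trend. Leaving out 1 library gave 733 to 2064, 822 to 2384, 239 to 1085, 127 to 413 and 10 to 127 genes. In the siRNA set, 1494, 1314 and 544 genes past 1.5-fold (knockdown without and with TGF-β, TGF-β in all transfections) became 480, 441 and 237 at 2-fold and 943, 797 and 330 with a mean of at least 10 FPKM. Taken over 22 cadherin genes, the share of Cdh1 was 76.9, 90.5, 28.5 and 33.5% in untreated and treated EpH4 and untreated and treated EpRas cells, and that of Cdh2 was 33.9 and 37.0% in untreated and treated EpRas cells. Over the scalings tried, the median of all genes moved by less than 0.1.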
